A study of Mus musculus with 2 samples.

Results

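Complex I of the respiratory chain was described through its nuclear genes in hearts with and without cardiomyocyte Med1. The genes were taken as every symbol that starts with Nduf, which gave 42 genes of the 22882 gene symbols in the files. Each of the 42 stood on its own single row. By their known roles, 36 encode structural subunits of complex I and 4 (Ndufaf1, Ndufaf2, Ndufaf3 and Ndufaf4) encode assembly factors, which help to build the complex without remaining in it. The other 2 carry the symbol by history. Ndufa4 encodes a protein now placed in complex IV, and Ndufa4l2 encodes its paralog, known as a hypoxia-induced gene.

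Complex I, NADH:ubiquinone oxidoreductase, is the entry point of electrons from NADH into the respiratory chain and is abundant in heart muscle, whose mitochondria supply nearly all of its ATP. Its matrix arm holds an N module, which oxidises NADH, and a Q module, which passes the electrons to ubiquinone. Its membrane arm holds the P modules, which pump protons and are built around subunits encoded by mitochondrial DNA. A small core of conserved subunits carries the flavin and the iron-sulfur clusters, and many accessory subunits surround it.

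The measurement was RNA sequencing of whole heart. Med1, also called PBP or TRAP220, is a subunit of the Mediator complex, which links transcription factors to RNA polymerase II. The csMed1-/- mice carry floxed Med1 alleles and a Cre transgene driven by the α-myosin heavy chain promoter, which is active in cardiomyocytes, so that other heart cells keep Med1. The controls were Med1fl/fl mice, with the same floxed alleles. All mice were 23 days old, of both sexes and of C57BL6/J background. RNA of 5 hearts was pooled for each genotype and 1 library was made from each pool. There are therefore no replicates, the spread between hearts is unknown, and no difference below has a test.

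Values are FPKM (fragments per kilobase of transcript, scaled for library depth in a way the sources do not give). They allow for transcript length and can be set side by side between genes. Total reads are not in the files analysed here. Ratios among low values gave the csMed1-/- library 1.39 times the control depth, if values were scaled to mapped fragments alone. A ratio is the csMed1-/- FPKM divided by the control FPKM, given on the log2 scale, so that -1 is 2-fold lower in csMed1-/-. Genes were kept when neither library listed them at 0 and the higher value reached 1 FPKM, which held for 10489 genes and all 42 Nduf genes. Med1 itself was at 3.38 FPKM in the control and 0.412 FPKM in the csMed1-/- library.

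Nduf transcripts were lower in the csMed1-/- library almost without exception, by modest amounts. Of the 42 genes, 40 had the lower value in csMed1-/- heart and 2, Ndufa7 and Ndufa4l2, had the higher one. Lower values by any amount were found for 53.2% of all genes kept. Of the 40, Ndufb6 and Ndufa3 were on the higher side when ratios were centred within bins of GC content. The median log2 ratio of the 42 genes was -0.78 (quartiles -1.17 and -0.57), beside -0.07 (quartiles -0.72 and 0.55) over all genes kept. Their log2 ratios were also closer together, with an SD of 0.55 beside 1.26 over all genes kept. Most of the 42 genes are abundant and most genes kept are not, so the spread was not compared at like level.

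A deficit of more than 2-fold was found for 14 of the 42 genes, and an excess of more than 2-fold for 0. The corresponding shares of all genes kept were 18% and 13.6%. Among the 1786 genes with a mean of 50 FPKM or more, 15.8% were lower by more than 2-fold and the median log2 ratio was 0.14. The 38 Nduf genes that abundant included 11 lower by more than 2-fold, with a median of -0.72. Ndufb7, an accessory subunit on the intermembrane space side, with 1399 FPKM in the control and 710 FPKM in the csMed1-/- library (log2 ratio -0.98), was the nearest gene to the 2-fold line among those within it.

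In bulk tissue, fewer cells of a type and less RNA per cell cannot be told apart. Summed FPKM of the 10 cardiomyocyte marker genes in the files, of 11 listed, was 51894 in control and 31828 in csMed1-/- heart. Of these markers, Actc1 and Mb were listed at 0 in control despite 9189 and 1040 FPKM in csMed1-/- heart, and the 8 others summed to 51894 and 21600 FPKM. Of these 8, 6 stood lower, with 4 past 2-fold and a median log2 ratio of -0.89. Summed fibroblast markers (8 genes) stood at 503 and 1193 FPKM, and 5 of them were higher, with 4 past 2-fold. Most of that rise came from the collagen genes Col1a1 (129 and 502 FPKM) and Col1a2 (95.7 and 314 FPKM). For the other cell types 1 gene set the direction of the sum. Endothelial markers (8) summed to 564 and 893 FPKM, but 6 of them were lower, and without Cldn5 the sums were 507 and 403 FPKM. Smooth muscle markers (5) summed to 723 and 1065 FPKM, with 3 lower, and without Cnn1 to 719 and 443 FPKM. Macrophage markers (7) summed to 164 and 131 FPKM, and without Lyz2 to 48.5 and 63.2 FPKM, and of the 6 kept 3 were lower and 3 higher. Alas2, the 1 red cell marker of 7 in the files, was at 35.8 and 82.1 FPKM. The part of these differences in the Nduf ratios was not tested.

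**Figure D1:**
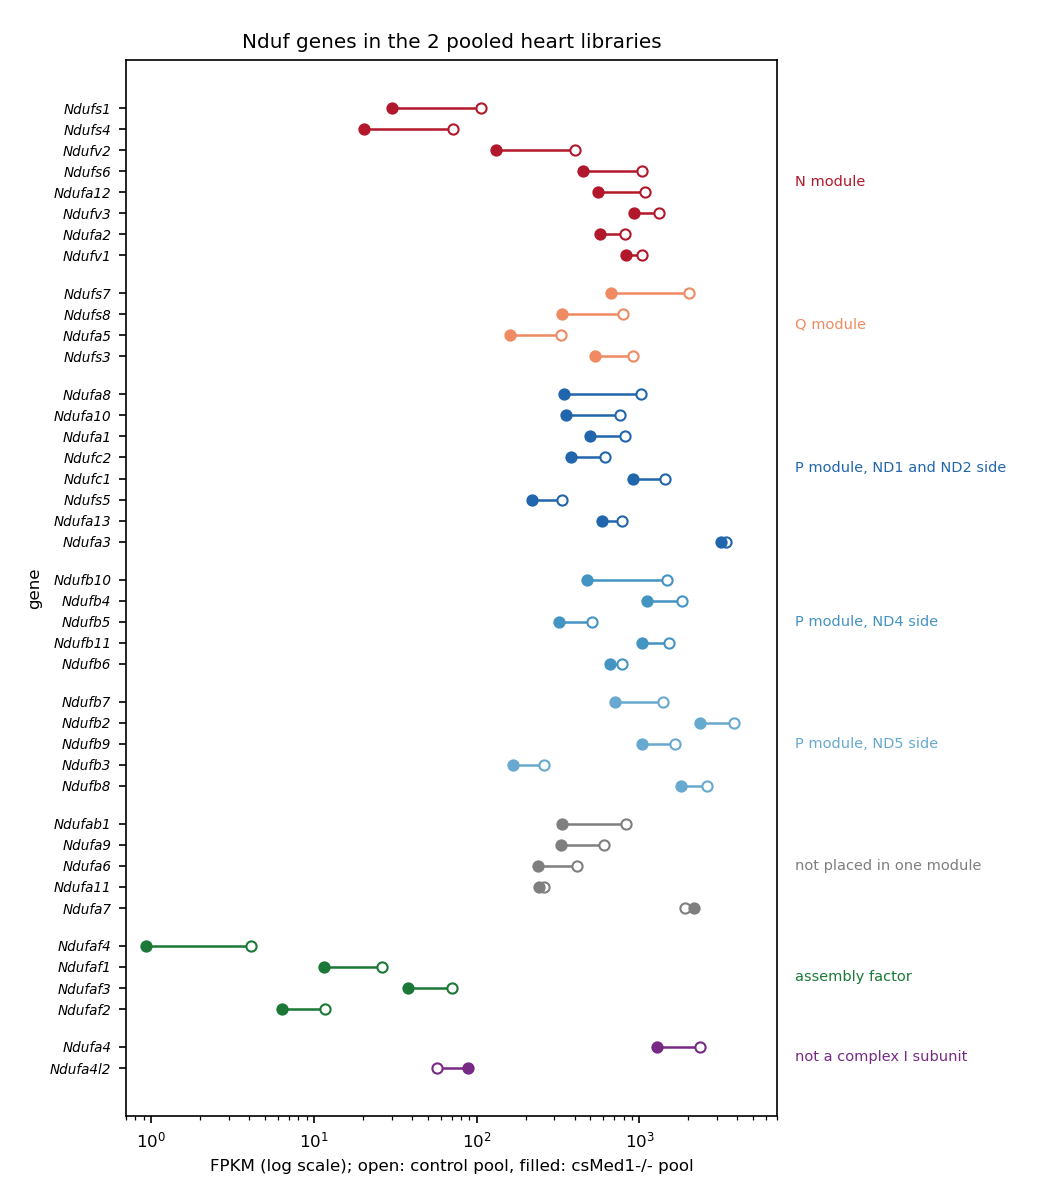
FPKM of the Nduf genes (log axis) in the control pool (open points) and the csMed1-/- pool (filled points), grouped by structural module and ordered within a module by log2 ratio, with 1 library per genotype and so no error bars. The filled point lies left of the open one for nearly every gene, farthest for Ndufaf4, Ndufs1 and Ndufs4, and right of it for Ndufa7 and Ndufa4l2.

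Promoter windows from RefSeq (GRCm38.p6, 250 bases before to 50 bases after the start site) were found for 37 of the 42 genes. They were searched on both strands for letters that NRF1 (CGCANGCG) and YY1 (AANATGGC) are known to bind, because the Nduf genes were lower together. An NRF1 core was in 12 of 37 windows (32.4%), beside 19.5% of the 7408 kept genes with a window and 9.22% of all genes with one. A YY1 core was in 13 of 37 (35.1%), beside 9.96% and 6.96%. Either was in 22 of 37 (59.5%), beside 27.0% of kept genes. Of the Nduf genes, 3 held both (8.11% of the 37, beside 2.38% of kept genes). Their windows are printed from 205 bases before to 30 bases after the start site, in lower case with each NRF1 or YY1 core in capitals. They are Ndufs6 (chr13:73328453-73328687, minus strand), Ndufb10 (chr17:24724394-24724628, minus strand) and Ndufa7 (chr17:33824440-33824674, plus strand).
Ndufs6: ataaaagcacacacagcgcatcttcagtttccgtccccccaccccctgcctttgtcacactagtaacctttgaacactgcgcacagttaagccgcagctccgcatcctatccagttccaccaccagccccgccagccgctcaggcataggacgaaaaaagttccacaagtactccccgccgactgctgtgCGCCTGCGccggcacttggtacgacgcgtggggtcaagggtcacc
Ndufb10: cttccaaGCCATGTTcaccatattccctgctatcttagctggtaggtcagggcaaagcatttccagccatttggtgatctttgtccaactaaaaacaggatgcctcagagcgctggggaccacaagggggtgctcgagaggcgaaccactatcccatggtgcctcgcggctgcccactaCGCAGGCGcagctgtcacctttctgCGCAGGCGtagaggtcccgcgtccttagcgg
Ndufa7: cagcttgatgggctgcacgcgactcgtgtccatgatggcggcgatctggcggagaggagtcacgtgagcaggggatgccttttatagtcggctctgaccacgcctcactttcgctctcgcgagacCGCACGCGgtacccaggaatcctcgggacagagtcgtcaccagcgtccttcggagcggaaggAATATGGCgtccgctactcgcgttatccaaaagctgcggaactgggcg
In Ndufs6 the capitals mark an NRF1 core on the opposite strand that begins at base -15, and its YY1 core begins at base 34, past the printed stretch. In Ndufb10 they mark a YY1 core on the opposite strand at base -198 and NRF1 cores at bases -26 and -1. In Ndufa7 they mark an NRF1 core at base -80 and a YY1 core at base -18.

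These 3 genes with both cores had log2 ratios of -1.22, -1.64 and 0.18, so the pair of cores was found both at a strong deficit and at the 1 subunit gene with a higher value. The median log2 ratio was -0.93 for Nduf genes with an NRF1 core and -0.71 for those without. It was -0.87 with a YY1 core and -0.78 without. An ETS core (CCGGAAG, bound by GABP) was in 13.5% of Nduf windows and 19.8% of kept genes, and a GC box (GGGCGG) in 51.4% and 70.2%. A site for ERRα (TNAAGGTCA) was in 1 Nduf window (2.70%), that of Ndufb4, beside 0.94% of kept genes. Such matches are letters in a window and were not measured as binding.

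**Figure D2:**
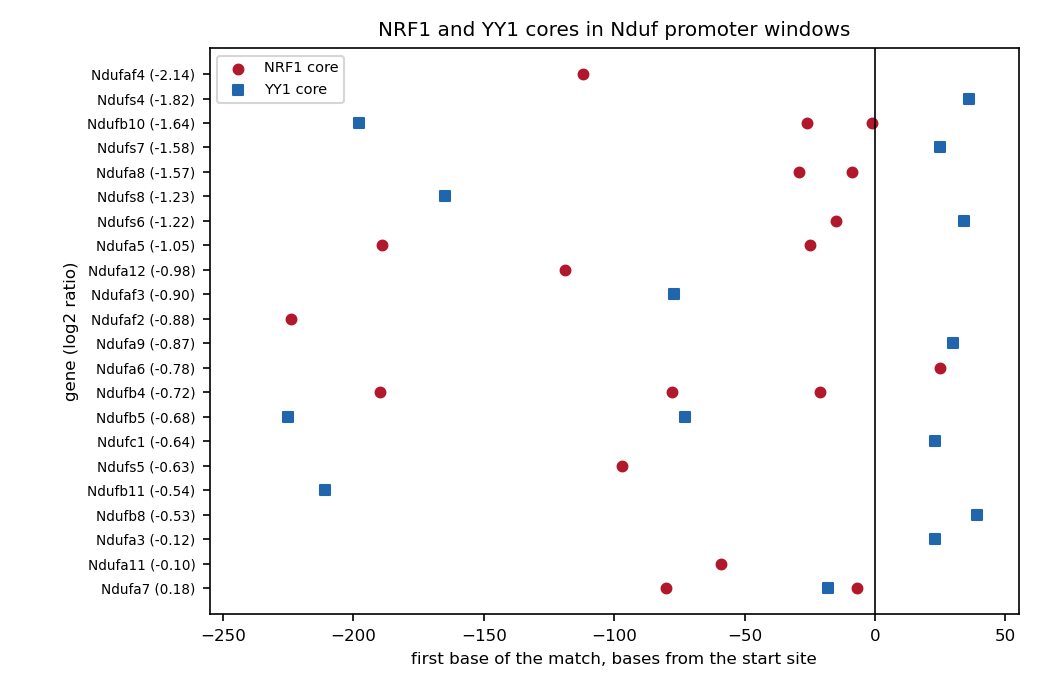
Position of NRF1 cores (circles) and YY1 cores (squares) in the promoter windows of the 22 Nduf genes that hold either, in bases from the RefSeq start site, with genes ordered from the lowest log2 ratio (in brackets) at the top. Ndufa5 and Ndufa7 have 2 start sites each in RefSeq, so the single NRF1 core of Ndufa5 is drawn at -189 and again at -25, and that of Ndufa7 at -80 and again at -7. Both cores occur along the whole order from Ndufaf4 (-2.14) to Ndufa7 (0.18).

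The matrix arm showed the deeper deficit of the 2 arms. Its 13 listed genes all had lower values in csMed1-/- heart, with 8 past 2-fold and a median log2 ratio of -1.05. The 18 listed genes of the membrane arm had lower values too, with 3 past 2-fold and a median of -0.67. Subunits not placed in a single module were left out of both arms. They were Ndufab1 (-1.31), Ndufa9 (-0.87), Ndufa6 (-0.78), Ndufa11 (-0.10) and Ndufa7 (0.18). Of these, Ndufa6 and Ndufa7 lie on the matrix side. Summed over the arm, matrix arm transcripts reached 10995 FPKM in the control and 5737 FPKM in the csMed1-/- library, a ratio of 0.522. The membrane arm sums were 24987 and 16125 FPKM, a ratio of 0.645. Whether the arms differ could not be tested with 1 library each. Centred within bins of GC content, the medians were -0.96 for the matrix arm and -0.54 for the membrane arm, and 2 genes of the latter, Ndufb6 and Ndufa3, were then on the higher side. Centred within bins of transcript length, they were -1.07 and -0.66. Most genes of both arms have short transcripts that fell in the same length bin and were shifted alike. This centring therefore could not compare the arms at like length.

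The N module was the most uneven of the modules (SD 0.61 on the log2 scale). Ndufs1, which encodes the large iron-sulfur subunit of the NADH-oxidising tip, was at 107 FPKM in the control and 30.1 FPKM in the csMed1-/- library (log2 ratio -1.83, chr1:63143596-63176833, minus strand, GRCm38 in the GENCODE M21 annotation). Ndufs4, an accessory subunit whose loss causes a Leigh-like mitochondrial disease, was at 71.6 and 20.2 FPKM (-1.82, chr13:114287795-114388258, minus strand). These were the lowest ratios of any structural subunit, and 6.38% and 6.42% of all genes kept had a lower one. Centred within bins of GC content, Ndufs7 (-1.88) and Ndufb10 (-1.84) stood below Ndufs4 (-1.71) and Ndufs1 (-1.50). Ndufv2, which carries an iron-sulfur cluster beside the flavin site, was at 400 and 132 FPKM (-1.60, chr17:66078638-66101559, minus strand). Ndufs6, the zinc-binding subunit and one of those with a printed promoter, was at 1043 and 447 FPKM (-1.22).

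The other 4 genes of this module lay within 2-fold. Ndufa12, an accessory subunit at the junction of the N and Q modules, was at 1088 FPKM in the control and 552 FPKM in the csMed1-/- library (-0.98). Ndufv3, a small accessory subunit, was at 1311 and 920 FPKM (-0.51). Ndufa2, an accessory subunit with a thioredoxin-like fold, was at 814 and 572 FPKM (-0.51). The smallest deficit belonged to Ndufv1, the flavin-binding subunit that receives electrons from NADH, with 1043 and 825 FPKM (-0.34). Ndufv1 and Ndufv2 are neighbours in the complex and are each present once, yet their transcripts were lower by unequal amounts. The Ndufv1 level was 2.61 times the Ndufv2 level in control and 6.27 times in csMed1-/- heart. This comparison within each library does not depend on scaling between libraries, but it does not allow for GC content. Centred within bins of GC content, the log2 ratios were closer together, at -0.54 for Ndufv1 and -1.27 for Ndufv2. This pair and the pairs below were chosen with their values known.

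The Q module was more even, with 4 of its 5 genes lower by more than 2-fold and a median of -1.05. Its median was -0.98 centred on the median of all genes and -0.96 within bins of GC content, so fewer than 4 then passed 2-fold. Ndufs7, which holds the last iron-sulfur cluster before ubiquinone, was at 2003 FPKM in the control and 672 FPKM in the csMed1-/- library (-1.58, chr10:80249121-80256794, plus strand). It ranked 5 among the 42 genes by level in control and 13 in csMed1-/- heart. Ndufs8, whose protein carries the iron-sulfur clusters that lead to it, was at 790 and 337 FPKM (-1.23). Ndufa5, an accessory subunit, was at 330 and 159 FPKM (-1.05).

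Ndufs3, a structural core subunit without a cluster, was at 912 FPKM in the control and 532 FPKM in the csMed1-/- library (-0.78, with 35.8% of windows shared with pseudogenes). Its deficit was the smallest of the Q module and the only one there within 2-fold.

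As a class, the 7 nuclear core subunits had a median log2 ratio of -1.23, and 5 of them were lower by more than 2-fold. The 29 accessory subunits had a median of -0.68, with 7 lower by more than 2-fold and 1, Ndufa7, higher. The core class is part of the matrix arm, so these 2 contrasts share genes.

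**Figure D3:**
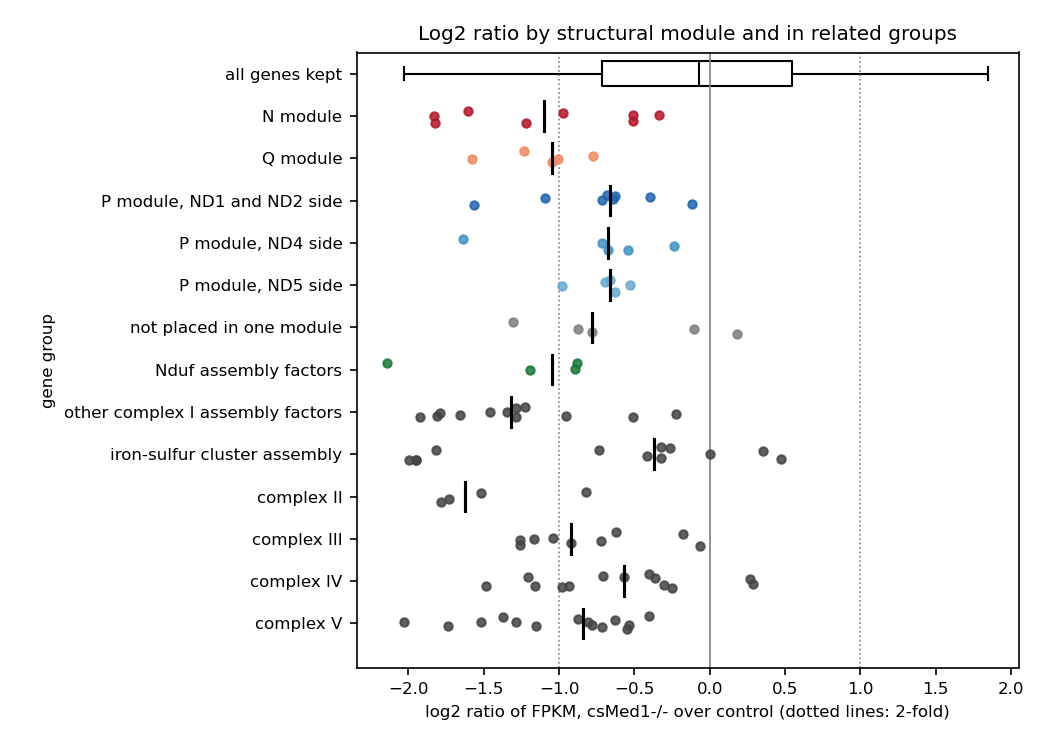
Log2 ratio of FPKM (csMed1-/- over control) for each gene of the structural modules, the assembly factors, iron-sulfur cluster assembly and complexes II to V, with a black tick at each median and dotted lines at 2-fold. The box gives the quartiles and median of all genes kept, with whiskers at percentiles 5 and 95. Matrix arm medians lie near the 2-fold line and membrane arm medians near -0.67, and only 2 genes of complex IV, 2 of iron-sulfur assembly and Ndufa7 lie clearly to the right of 0.

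Most membrane arm genes lay close to their median, with 3 lower by more than 2-fold and Ndufa3 and Ndufb6 near level. Ndufb10, an accessory subunit facing the intermembrane space whose promoter is printed with both cores, was at 1485 FPKM in the control and 477 FPKM in the csMed1-/- library (-1.64). Its rank among the 42 genes was 10 in control and 21 in csMed1-/- heart. Ndufa8, which also faces the intermembrane space, was at 1020 and 344 FPKM (-1.57). Ndufa10, a subunit with a nucleoside kinase-like fold, was at 756 and 353 FPKM (-1.10). The side of the arm near ND1 and ND2 held 2 of these, the ND4 side held 1, and the ND5 side at the distal end held 0.

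Medians of the 3 stretches of the membrane arm were nearly equal, at -0.66 for the ND1 and ND2 side (8 genes), -0.68 for the ND4 side (5 genes) and -0.66 for the ND5 side (5 genes). Centred within bins of GC content, these medians were less alike, at -0.51, -0.50 and -0.79. Nearly all genes of the 3 stretches encode small accessory subunits of the membrane. On the ND1 and ND2 side, Ndufa1 was at 813 and 496 FPKM (-0.71), Ndufc2 was at 613 and 382 FPKM (-0.68) and Ndufc1 was at 1428 and 916 FPKM (-0.64). Ndufs5, which unlike most Ndufs genes encodes an accessory subunit on the intermembrane space side, was at 337 and 218 FPKM (-0.63), and 41.2% of its sequence windows are shared with an annotated pseudogene. Ndufa13, also known as GRIM-19 from its part in cell death signalling, was at 779 and 592 FPKM (-0.40).

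Ndufa3, a small single-span membrane subunit, was almost level, with 3417 FPKM in the control and 3149 FPKM in the csMed1-/- library (-0.12, and 0.09 within bins of GC content). It was second to Ndufb2 in control and first in csMed1-/- heart. The level of Ndufa3 was 0.894 times that of Ndufb2 in control and 1.34 times in csMed1-/- heart. For Ndufb2, 24.4% of windows are shared with other annotated transcripts.

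On the ND4 side, Ndufb4 was at 1822 and 1108 FPKM (-0.72, with 37.0% of windows shared with pseudogenes), Ndufb5 was at 509 and 318 FPKM (-0.68) and Ndufb11 was at 1509 and 1034 FPKM (-0.54). Ndufb6 was at 779 and 661 FPKM (-0.24, and 0.15 within bins of GC content). Among genes of the ND5 side, Ndufb2 had the highest control level of all Nduf genes, with 3820 and 2355 FPKM (-0.70). Ndufb9, which carries an LYR motif and binds the acyl carrier protein, was at 1649 and 1043 FPKM (-0.66). Ndufb3 was at 258 and 167 FPKM (-0.63) and Ndufb8 was at 2595 and 1801 FPKM (-0.53). Every gene of the distal end thus lay between -0.98 and -0.53, the narrowest range of the modules. Within bins of GC content the distal end ran from -1.28 (Ndufb7) to -0.30 (Ndufb3).

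The 5 subunits that were not placed in a single module spread more widely. Ndufab1, the mitochondrial acyl carrier protein, which also serves fatty acid and lipoic acid synthesis, was at 828 FPKM in the control and 335 FPKM in the csMed1-/- library (-1.31). Its LYR-motif partner in the matrix arm, Ndufa6, was at 411 and 239 FPKM (-0.78), and Ndufa9, which sits where the arms meet, was at 604 and 329 FPKM (-0.87). Ndufa11, a membrane subunit beside ND5, was at 261 and 243 FPKM (-0.10). Ndufa7, an accessory subunit of the matrix side, was at 1918 and 2176 FPKM (0.18) and was the 1 structural subunit with a higher value in csMed1-/- heart. Its direction was the same under every scaling tried.

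Assembly factor transcripts were scarce, and their deficits included the deepest of all. Ndufaf4, which acts with Ndufaf3 at the Q module, was at 4.12 FPKM in the control and 0.933 FPKM in the csMed1-/- library (-2.14, chr4:24898083-24905001, plus strand), and 4.35% of all genes kept had a lower ratio. At so low a level the value is sensitive to small absolute differences, and with 1 FPKM added to both libraries it was -1.40. Ndufaf3 was at 70.4 and 37.8 FPKM (-0.90), so the Ndufaf3 level was 17.1 times the Ndufaf4 level in control and 40.5 times in csMed1-/- heart.

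Ndufaf1, a chaperone of membrane arm assembly, was at 26.3 FPKM in the control and 11.5 FPKM in the csMed1-/- library (-1.19). Ndufaf2, a paralog of Ndufa12 that holds its place during assembly, was at 11.8 and 6.39 FPKM (-0.88). Ndufa12 was 92.5 times as abundant as Ndufaf2 in control and 86.5 times in csMed1-/- heart, so the paralogs stood in nearly the same proportion in both libraries. For Ndufa12, 26.2% of windows are shared with an annotated pseudogene. The 4 assembly factors had a median log2 ratio of -1.04.

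Assembly factors with other symbols were lower as well. Of 17 listed symbols, 12 were in the files analysed here, and all 12 were lower in csMed1-/- heart, with 9 past 2-fold and a median of -1.32. The lowest was 2310003L22Rik, an older name of Ndufaf5, which hydroxylates an arginine of Ndufs7, with 18.3 and 4.83 FPKM (-1.92). The highest was 1810043H04Rik, an older name of Ndufaf8, with 106.5 and 91.0 FPKM (-0.23). An older name of Ndufaf7, 2410091C18Rik, was not on the list and is not in these counts, and was at 9.62 and 6.38 FPKM (-0.59). The partners of Ndufaf1 below were named after their values were seen. Ecsit, which works with Ndufaf1, was at 131 and 51.5 FPKM (-1.34). Acad9 was at 11.6 and 4.74 FPKM (-1.29). Tmem126b was at 2.60 and 1.82 FPKM (-0.51).

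Genes of iron-sulfur cluster assembly, which supply the clusters of the core subunits, were less uniform than Nduf genes. Of 12 in the files, 9 were lower, among them 4 past 2-fold, with a median of -0.37. They ranged from Hspa9, the mitochondrial HSP70, with 99.9 and 25.0 FPKM (-2.00), to Fdxr, ferredoxin reductase, with 8.25 and 11.5 FPKM (0.47).

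The 2 Nduf genes outside complex I went in opposite directions. Ndufa4 was at 2361 FPKM in the control and 1286 FPKM in the csMed1-/- library (-0.88). Ndufa4l2 was at 57.4 and 88.9 FPKM (0.63), the highest ratio among the 42 genes and still within 2-fold. Ndufa4 was thus 41.1 times as abundant as Ndufa4l2 in control and 14.5 times in csMed1-/- heart. Both directions held under every scaling tried.

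By symbol, the Ndufs genes (8) had the lowest median of the subunit families, at -1.23, with 6 lower by more than 2-fold. The Ndufa genes (15) had a median of -0.78 with 4 past 2-fold, the Ndufb genes (10) of -0.67 with 1, the Ndufc genes (2) of -0.66 with 0, and the Ndufv genes (3) of -0.51 with 1. Symbols do not follow position in the complex, as Ndufs5 in the membrane arm shows. The Ndufv median in particular rests on Ndufv3, between Ndufv1 and Ndufv2 at either end.

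Other respiratory complexes gave a setting for these values. Nuclear genes of complexes II to V (40 genes) had lower values in 38 cases, with 16 past 2-fold and a median of -0.85, beside -0.72 for the 36 structural subunits of complex I. The complex II median was -1.62 (4 genes), that of complex III -0.92 (9 genes), of complex IV -0.57 (13 genes) and of complex V -0.84 (14 genes). Complex I therefore lay between complexes IV and V. The subunits of complex I encoded by mitochondrial DNA were not analysed here.

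Levels of the structural subunits differed widely within a library, although most are present in the complex in equal number. In control they ran from 71.6 FPKM (Ndufs4) to 3820 FPKM (Ndufb2), a 53.4-fold range with a median of 870 FPKM. In csMed1-/- heart they ran from 20.2 FPKM (Ndufs4) to 3149 FPKM (Ndufa3), a 156-fold range with a median of 514 FPKM. Subunits at 1000 FPKM or more numbered 17 in control and 7 in csMed1-/- heart. The 42 Nduf genes made up 5.45% of the control total and 3.72% of the csMed1-/- total of FPKM. These totals are not fully alike, because Actc1 and Mb were listed at 0 in control and at 9189 and 1040 FPKM in csMed1-/- heart.

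The order of subunits was largely kept. Across the 36 structural subunits, log2 FPKM values of the control and csMed1-/- libraries correlated with Pearson's r of 0.95 and Spearman's rho of 0.91. Subunits with lower levels tended to have lower ratios (rho 0.38 between mean log2 FPKM and log2 ratio, n = 36), and over all genes kept rho was 0.13. These describe genes of 1 pair of libraries and carry no test.

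**Figure D4:**
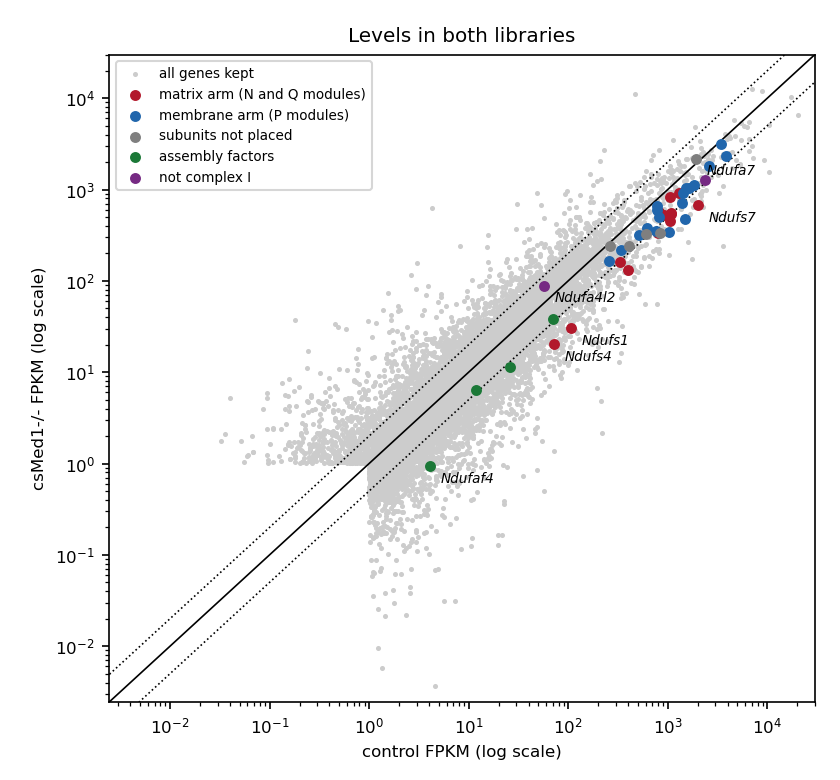
FPKM in csMed1-/- heart against FPKM in control heart (both axes log) for all genes kept (grey) and the Nduf genes (coloured by arm or role), with a line of equality and dotted lines at 2-fold. Nduf genes form a band below the line of equality, at high levels for subunits and at low levels for assembly factors, with Ndufa7 and Ndufa4l2 just above the line.

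Transcript length, GC content and shared sequence were read beside the ratios. Among the 42 genes, longer transcripts had lower ratios (rho -0.40, GENCODE M21 lengths), whereas rho was -0.08 over the 9153 kept genes with a length. The matrix arm genes had a median transcript length of 1038 bases and the membrane arm genes of 718 bases. GC content and ratio had rho of 0.30 in the Nduf genes and 0.21 over all genes kept. Centred within bins of transcript length, the Nduf median was -0.78 and the same number of genes, 14, was lower by more than 2-fold. Most Nduf transcripts are short (median 849.5 bases, beside 2700 over all genes kept with a length) and fell in the same bin. Differences in length among the Nduf genes were therefore hardly allowed for. Many Nduf genes have processed pseudogenes, and reads of a gene and its copies can be divided between them by alignment. For 26 of the 42 genes no 50-base window of the transcript was found in another annotated transcript, and for 8 more than 10% of windows were shared, led by Ndufs5 with 41.2% (shared with BC002163), Ndufb4 with 37.0% and Ndufs3 with 35.8%. How far sharing moved the values of those genes is not known. BC002163 itself was listed at 287 FPKM in the control and 152 FPKM in the csMed1-/- library, beside 337 and 218 FPKM for Ndufs5. The median without the 8 was -0.83.

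Transcripts of known regulators of respiratory chain genes were read beside them. Ppargc1a, the coactivator PGC-1α, was at 4.41 FPKM in the control and 0.953 FPKM in the csMed1-/- library (-2.21). Ppargc1b stood on 2 rows, whose sums were 4.87 and 1.76 FPKM (-1.47), a value that depends on summing them. Esrra, the nuclear receptor ERRα, was at 127 and 61.4 FPKM (-1.05), and Ppara was at 12.4 and 1.66 FPKM (-2.90). Tfam, which maintains and transcribes mitochondrial DNA, was at 1.85 and 0.475 FPKM (-1.96). Ppargc1a and Tfam were under 1 FPKM in csMed1-/- heart, so their ratios are sensitive to small absolute differences. Nrf1, nuclear respiratory factor 1, was near level, with 5.07 and 5.65 FPKM (0.15), as were Pprc1 with 6.44 and 7.30 FPKM (0.18) and Gabpb1 with 1.98 and 1.78 FPKM (-0.16). Yy1 was at 4.47 and 3.06 FPKM (-0.55). Gabpa was below 1 FPKM in both libraries and was not kept.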

How the data were processed

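Polyadenylated heart RNA of 5 Med1fl/fl and 5 csMed1-/- mice, pooled by genotype, was sequenced as 1 library each. The authors aligned reads to mm10 with TopHat2 2.0.8b and made the deposited FPKM values with Cuffdiff 2.1.1; the library scaling is not given in the sources used here. The submitters' processing notes also list STAR 2.4.0h and DESeq2 without a role. Rows sharing a symbol were summed (412 of 22882 symbols, none of them an Nduf gene). Ratios used no pseudocount. Genes at 0 FPKM in a library, or under 1 FPKM in both, were left out, and 2-fold was the fold counted. The FPKM files hold no counts, so absolute depth and precision are unknown, and no test or p-value was computed. Relative depth came from the commonest ratio (0.722, with 116 rows within 1% of it) among 2461 rows whose values were both 0.15 FPKM or less. Computation used Python 3.11.15, matplotlib 3.10.9, scipy 1.17.1, pandas 2.3.3 and numpy 2.4.6 and was tested on simulated data.

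Transcript lengths, GC content, positions and shared 50-base windows came from GENCODE M21 (GRCm38), and promoters from RefSeq. Complex I modules, assembly factors, other complexes, regulators and cell markers were fixed lists. The members and lists were chosen with earlier results of these data known. A gene of the set is counted in the totals and medians and is not reported by name here. By rule, the text names the core subunits, the 6 lowest and 6 highest ratios, and the 3 highest and 3 lowest control levels. The rule also names Ndufaf genes, Ndufa4, Ndufa4l2, genes beside the 2-fold line, Med1, the regulators and the ends of each list. The other subunits, Alas2, Actc1, Mb, Lyz2, Col1a1, Col1a2, Ecsit, Acad9, Tmem126b, 2410091C18Rik and the genes that share sequence were named after their values were seen. The alternatives were pseudocounts of 0.1 and 1, other filters, 3 scalings, folds of 1.5 and 4, rows kept apart and structural subunits only. Chosen after seeing the data were a mean of 50 FPKM, centring within 10 bins of GC content or length, and leaving out genes with shared windows.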

Additional observations from a re-analysis of the deposited data

How the results depend on the processing

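The Nduf median log2 ratio ran from -0.83 to -0.71 over all alternatives, and the count lower by more than 2-fold from 11 to 14. It was 31 lower and 1 higher at 1.5-fold, beside 29.7% and 23.7% of all genes kept, and 1 lower at 4-fold, beside 5.14%. Without genes under 1 FPKM in a library, under 10 FPKM in both, or under a mean of 50 FPKM, the Ndufaf median was -0.90. The first 2 left out Ndufaf4, the last left Ndufaf3 alone and put the N module at -0.98, because Ndufs4 was left out. Centring within bins of GC content put the medians of the Ndufc, Ndufs and Ndufv genes at -0.40, -1.45 and -0.71, the ND1 and ND2, ND4 and ND5 sides at -0.51, -0.50 and -0.79, and the membrane arm at -0.54. It also put Ndufb6 at 0.15 and Ndufa3 at 0.09, and the cause was not tested. The other 188 medians and counts stayed within 1.5 times for a count and 0.1 for a median log2 ratio. Among single-gene log2 ratios, 19 moved by 0.1 or more and 203 by less. Centring on the median of all genes, which subtracts -0.07, left 12 genes lower by more than 2-fold, and Ndufa5 was no longer among them. No paired analysis was possible because each genotype has 1 library. Without counts, depth sets no stated limit on any value.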
